A study of Mus musculus with 8 samples.

Results

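The enzymes described here clear reactive aldehydes, carbonyls and epoxides from cells: the aldo-keto reductases Akr1b3, Akr1b7, Akr1b8 and Akr1a1, the aldehyde dehydrogenases Aldh2, Aldh3a1 and Aldh1a7, the alcohol dehydrogenase Adh7, the carbonyl reductase Cbr1 and the epoxide hydrolase Ephx1. Their probe sets were those whose platform annotation named 1 of these 10 genes and no other. This gave 11 probe sets of 12422 on the array, for 8 of the 10 genes, of 8251 genes that the array names alone: 3 for Aldh2, 2 for Aldh3a1 and 1 each for Akr1b8, Akr1a1, Aldh1a7, Adh7, Cbr1 and Ephx1. Akr1b3 and Akr1b7 had no such probe set, so their RNA was not analysed here.

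The series asks how ozone affects the permeability of mouse airways. Whole lung RNA was read on 8 oligonucleotide arrays in 4 groups of 2. The groups were C3H/HeJ mice in filtered air, C3H/HeJ mice in ozone, C3H/HeOuJ mice in filtered air and C3H/HeOuJ mice in ozone. The labels give 72 h of exposure for the C3H/HeOuJ groups, no duration for the C3H/HeJ groups, and no ozone concentration, age or sex. By background knowledge, C3H/HeJ mice have a defective Tlr4, the receptor of bacterial endotoxin, and C3H/HeOuJ mice an intact one. Tlr4 itself was not analysed here. The arrays of a group are named 1a and 1b, and nothing says that they came from separate animals. Every p-value is therefore relative to a spread between 2 arrays of a group that may be wholly technical.

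Ozone attacks the double bonds of unsaturated lipids in the fluid that lines the airways and in cell membranes, and the products include saturated and unsaturated aldehydes. Aldehyde dehydrogenases oxidise such aldehydes to acids, aldo-keto reductases and carbonyl reductases reduce them to alcohols, and epoxide hydrolases open reactive epoxides with water. In the airway many of these enzymes are abundant in club cells, the secretory cells of the bronchioles. Several are known targets of Nrf2, the transcription factor of the antioxidant response, or of the aryl hydrocarbon receptor.

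In C3H/HeOuJ lungs, Akr1b8 and 1 of the 3 probe sets of Aldh2 had the smallest p-values of the 11 for ozone against air. They stood at 1.83-fold and 1.65-fold the air level, and ranked 58 and 54 among all 10953 probe sets tested. Neither passed an adjusted p of 0.05 in limma, a linear model fitted over all probe sets, though at that threshold this Aldh2 probe set passed in 6 and Akr1b8 in 4 of 12 alternative settings. Another Aldh2 probe set was lower in ozone, at 0.785-fold, and the mean over the 3 had a log2 effect of 0.30 (limma adjusted p 0.348). In C3H/HeJ lungs no probe set of these enzymes differed by more than 0.23 on the log2 scale. The call count for the 11 probe sets was 0 in all 7 comparisons that the design allows. In those comparisons 0% to 0.977% of all probe sets tested passed.

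RefSeq promoter sequences (build GRCm38.p6) matched 7 of the 10 genes, Akr1b8, Akr1b7, Akr1a1, Aldh1a7, Adh7, Cbr1 and Ephx1, and the 250 bases before the start were searched on both strands. Aldh2, Aldh3a1 and Akr1b3 were not searched. The Adh7 window, chr3:138217523-138217772, lay inside the span listed for that gene, chr3:138198064-138232042, so it does not precede the outermost start. The core of the antioxidant response element, TGACNNNGC, which Nrf2 binds, had no match in the 7 windows, against a match in 10.2% of all 32851 promoters of that length. The core of the xenobiotic response element, GCGTG, which the aryl hydrocarbon receptor binds, matched in Akr1b8 and Cbr1, against 28.2% of all promoters. These 2 windows are shown because they were the ones with a match. The Akr1b8 window lies at chr6:34353896-34354145 and the Cbr1 window at chr16:93607587-93607836, both on the plus strand. Each is written 5′ to 3′ in lower case, and capitals mark GCGTG or, where the match is on the opposite strand, CACGC. A match is a description of the letters and not a binding site.
Akr1b8: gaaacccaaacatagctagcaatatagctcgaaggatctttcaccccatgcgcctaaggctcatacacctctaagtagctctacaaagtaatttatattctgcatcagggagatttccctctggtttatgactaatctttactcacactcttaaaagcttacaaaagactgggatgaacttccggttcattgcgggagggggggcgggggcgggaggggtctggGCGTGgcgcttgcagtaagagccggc
Cbr1: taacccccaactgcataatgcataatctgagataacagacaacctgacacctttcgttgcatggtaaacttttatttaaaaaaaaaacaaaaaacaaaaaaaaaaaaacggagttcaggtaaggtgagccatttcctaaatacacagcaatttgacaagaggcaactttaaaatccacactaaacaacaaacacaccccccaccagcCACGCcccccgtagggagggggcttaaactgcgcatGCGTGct
The Akr1b8 match began 26 bases before the start. The Cbr1 matches began 43 bases before the start, on the opposite strand, and 7 bases before it.

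Akr1b8 encodes an aldo-keto reductase that reduces aldehydes such as 4-hydroxynonenal, a product of lipid peroxidation. Its intensity was 1906 and 1559 on the C3H/HeJ air arrays, 2025 and 1768 in C3H/HeJ ozone, 1502 and 1397 in C3H/HeOuJ air, and 2584 and 2704 in C3H/HeOuJ ozone. The C3H/HeOuJ ozone arrays were the highest of the 8 and lay above every other array, and the C3H/HeOuJ air arrays were the lowest. The groups ranked C3H/HeOuJ ozone, C3H/HeJ ozone, C3H/HeJ air and C3H/HeOuJ air, and the C3H/HeJ groups overlapped. The ozone effect was 0.87 on the log2 scale in C3H/HeOuJ (SE 0.15, 95% interval 0.53 to 1.21, limma adjusted p 0.0556). In C3H/HeJ it was 0.13 (SE 0.15, interval -0.21 to 0.47, limma adjusted p 1). The difference between the strains' effects was 0.73 (SE 0.21, limma adjusted p 0.26), so the effects were not shown to differ.

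Akr1a1, the aldehyde reductase that also takes part in vitamin C synthesis in mice, read 10558 and 10727 in C3H/HeJ air, 10705 and 10562 in C3H/HeJ ozone, 8475 and 9466 in C3H/HeOuJ air, and 8313 and 10461 in C3H/HeOuJ ozone. The ozone arrays overlapped the air arrays in both strains. The effect of ozone was 0.00 in C3H/HeJ (interval -0.35 to 0.35) and 0.06 in C3H/HeOuJ (interval -0.29 to 0.41), both log2, and the latter ran from -0.11 to 0.22 with 1 array left out. All 4 C3H/HeOuJ arrays lay below the 4 C3H/HeJ arrays, with a log2 strain difference of -0.22 averaged over exposures (SE 0.11, limma adjusted p 0.441).

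Aldh2, the mitochondrial enzyme that oxidises acetaldehyde and lipid aldehydes, was read by 3 probe sets that did not move together, told apart here by the ends of their names, _s_at, _at and _f_at. The _s_at probe set read 4164 and 4509 in C3H/HeJ air, 4604 and 4249 in C3H/HeJ ozone, 3982 and 4270 in C3H/HeOuJ air, and 6822 and 6813 in C3H/HeOuJ ozone. The latter arrays were higher than all others, and the other 3 groups overlapped. Its log2 ozone effect was 0.73 in C3H/HeOuJ (SE 0.12, interval 0.45 to 1.00, limma adjusted p 0.0508) and 0.03 in C3H/HeJ (SE 0.12, interval -0.25 to 0.31). The _at probe set read 3124 and 3891, 3539 and 3492, 3814 and 3440, and 5089 and 5247 in the same order of groups. Again the C3H/HeOuJ ozone arrays were the highest pair, with an effect of 0.51 (SE 0.14, limma adjusted p 0.146) against 0.01 in C3H/HeJ.

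The _f_at probe set of Aldh2 went the other way in the same arrays. It read 1117 and 1500 in C3H/HeJ air, 1350 and 1698 in C3H/HeJ ozone, 1538 and 1284 in C3H/HeOuJ air, and 943 and 1290 in C3H/HeOuJ ozone, where it gave -0.35 (SE 0.22, limma adjusted p 0.491). That effect was -0.12 without C3H/HeOuJ ozone 1a and -0.58 without C3H/HeOuJ ozone 1b. Its groups overlapped within each strain. Over the 8 arrays its Pearson correlation was -0.58 with the _s_at and -0.36 with the _at probe set, whereas those 2 correlated at 0.92. The suffixes _s_at and _f_at are the maker's marks for probe sets that may match further transcripts, and the probe sequences were not analysed here. The mean over the 3 probe sets in C3H/HeOuJ had a standard error of 0.14.

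Aldh3a1 oxidises medium-chain aldehydes from lipid peroxidation and is abundant in the cornea. The _at probe set of Aldh3a1 read 1353 and 1249 in C3H/HeJ air, 1263 and 1119 in C3H/HeJ ozone, 1081 and 1407 in C3H/HeOuJ air, and 1674 and 1451 in C3H/HeOuJ ozone. The C3H/HeOuJ ozone arrays were above all others by a narrow gap, with an effect of 0.34 (SE 0.18, interval -0.06 to 0.74, limma adjusted p 0.396). It was 0.15 without C3H/HeOuJ air 1a and 0.53 without C3H/HeOuJ air 1b. Its _f_at probe set was dim, above the floor of 69.63 (the 20th percentile of all values, to which lower ones were raised for the test) on 3 of 8 arrays, and ranged from 46.6 to 107.6, with both extremes in C3H/HeOuJ ozone. The C3H/HeOuJ effect for this probe set was 0.23 (SE 0.29), within its standard error, and ran from -0.09 to 0.54 with 1 array left out.

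Aldh1a7 encodes a cytosolic dehydrogenase closely related to Aldh1a1, and signal from the 2 transcripts could be mixed in its probe set. It read 1448 and 904.5 in C3H/HeJ air, 1352 and 1096 in C3H/HeJ ozone, 1134 and 1170 in C3H/HeOuJ air, and 1573 and 1280 in C3H/HeOuJ ozone. The C3H/HeJ air arrays spanned nearly the whole range of the gene. Its log2 effect was 0.30 in C3H/HeOuJ (SE 0.24, limma adjusted p 0.579) and 0.09 in C3H/HeJ (SE 0.24). The brighter probe set of Aldh1a1 itself had 0.19 (SE 0.20) in C3H/HeOuJ and 0.02 (SE 0.20) in C3H/HeJ.

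**Figure D1:**
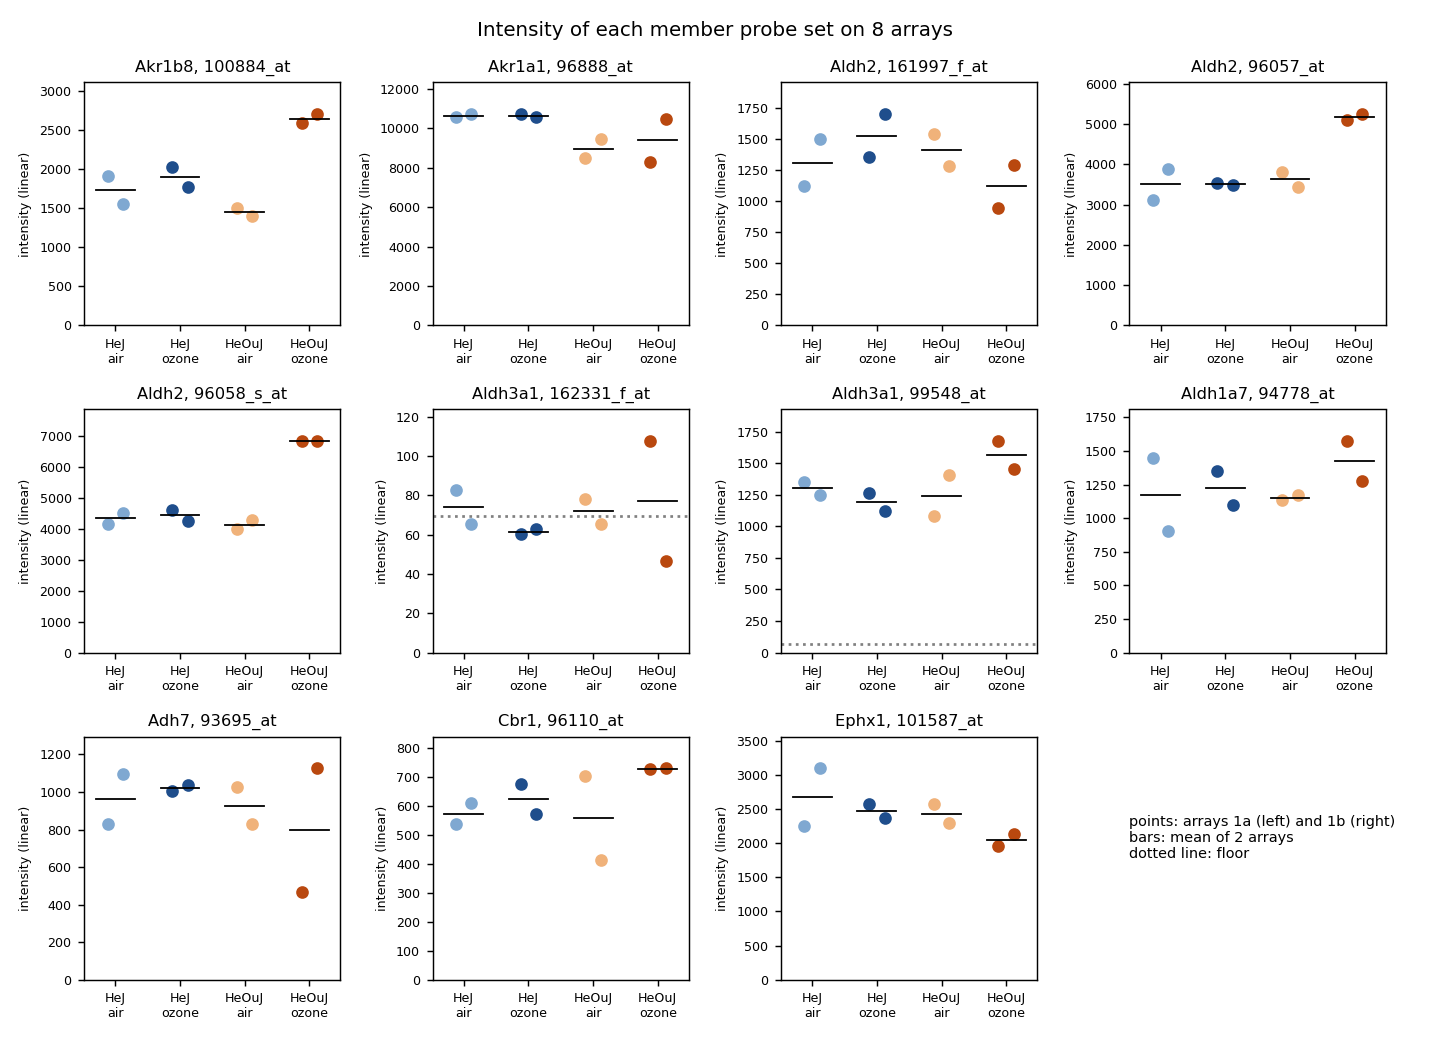
Intensity on a linear scale (y axis, from 0) for the 11 probe sets on each of 8 arrays, by group, with bars at the mean of 2 arrays and a dotted floor line in the Aldh3a1 panels. For Akr1b8 and for the _at and _s_at probe sets of Aldh2, both C3H/HeOuJ ozone arrays sit clear of the other 6, and for Adh7 they lie at 467.4 and 1126, the lowest and the highest values of that gene.

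Adh7, the class of alcohol dehydrogenase found in epithelia that also acts on retinol and on long-chain substrates, had the largest standard error of the 11 probe sets. It read 830.8 and 1098 in C3H/HeJ air, 1004 and 1035 in C3H/HeJ ozone, 1027 and 828.4 in C3H/HeOuJ air, and 467.4 and 1126 in C3H/HeOuJ ozone. One array thus set its C3H/HeOuJ effect of -0.35 (SE 0.37, limma adjusted p 0.692). The effect was 0.29 without C3H/HeOuJ ozone 1a and -0.98 without C3H/HeOuJ ozone 1b.

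Cbr1, the NADPH-dependent carbonyl reductase of the cytosol, read 536.3 and 610.2 in C3H/HeJ air, 675.5 and 573.2 in C3H/HeJ ozone, 704.4 and 415 in C3H/HeOuJ air, and 726.7 and 730.1 in C3H/HeOuJ ozone. The C3H/HeOuJ ozone arrays nearly coincided and were the highest, and the C3H/HeOuJ air arrays were far apart. The effect of 0.43 (SE 0.28, limma adjusted p 0.497) was 0.81 without C3H/HeOuJ air 1a and 0.05 without C3H/HeOuJ air 1b.

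Ephx1, the microsomal epoxide hydrolase, had its lowest values on the C3H/HeOuJ ozone arrays. Its values were 2250 and 3093 in C3H/HeJ air, 2573 and 2370 in C3H/HeJ ozone, 2576 and 2287 in C3H/HeOuJ air, and 1961 and 2136 in C3H/HeOuJ ozone. These last 2 lay below all 6 others, a difference from C3H/HeOuJ air of -0.25 (SE 0.17, interval -0.63 to 0.14, limma adjusted p 0.528).

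Across the group, ozone effects in C3H/HeOuJ were positive for 8 of 11 probe sets, with a median of 0.30 on the log2 scale, against 0.02 over all 10953 probe sets tested. In C3H/HeJ 7 were positive, with a median of 0.03 against 0.01. The ozone and air arrays did not overlap for 7 of the 11 probe sets in C3H/HeOuJ, where 41.8% of all probe sets tested separated in this way, and for 0 of 11 in C3H/HeJ, where 34.4% did. The 7 were Akr1b8, the _at and _s_at probe sets of Aldh2, the _at probe set of Aldh3a1, Aldh1a7, Cbr1 and Ephx1, the last being lower in ozone. All 11 probe sets passed the filter on dim values.

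Calls at an adjusted p of 0.05 in limma were few over the whole array. For ozone in C3H/HeOuJ 0.456% of the probe sets tested passed, and none of the 11 did. For ozone in C3H/HeJ the share was 0%, for the interaction 0% and for ozone averaged over the strains 0.0183%. At an unadjusted p under 0.05 the members counted 0 for ozone in C3H/HeJ, 3 in C3H/HeOuJ, 3 for the interaction and 3 for the average, against 4.35%, 15.5%, 11.4% and 9.25% of all probe sets. In the last 3 comparisons the 3 were the same, namely Akr1b8 and the _at and _s_at probe sets of Aldh2. The interaction and the average both contain the C3H/HeOuJ effect and are not separate results. For Aldh2 the interaction was 0.70 with _s_at (SE 0.17, limma adjusted p 0.213) and 0.50 with _at (SE 0.20, limma adjusted p 0.397). Averaged over the strains, ozone gave 0.50 for Akr1b8 (SE 0.11, limma adjusted p 0.249) and 0.38 for Aldh2 _s_at (SE 0.09, limma adjusted p 0.265).

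**Figure D2:**
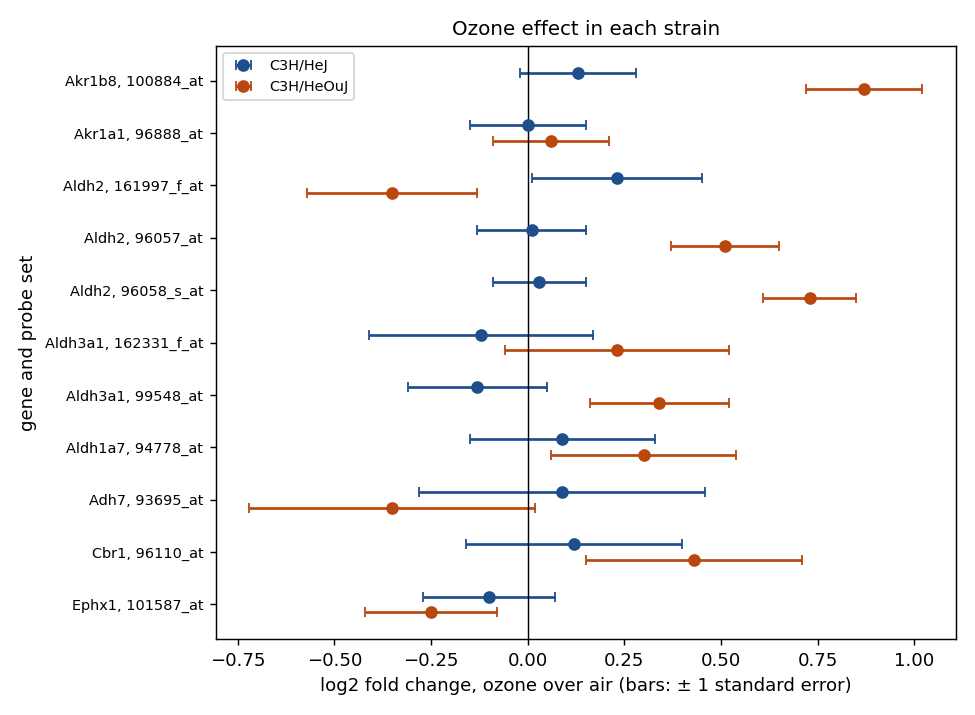
Log2 fold change of ozone over air (x axis) with bars of 1 standard error, for each probe set (y axis) in C3H/HeJ (blue) and C3H/HeOuJ (orange). The C3H/HeJ values lie between -0.13 and 0.23, and those of C3H/HeOuJ between -0.35 and 0.87, with Akr1b8 and Aldh2 _s_at farthest to the right.

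Strain differences, C3H/HeOuJ over C3H/HeJ, were small in air. None of the 11 passed there, where 0.0456% of all probe sets did, and 3 of 11 were positive, with a median of -0.07. In ozone 7 were positive, with a median of 0.23, and none passed against 0.977% of all. Aldh2 _s_at came closest, at 0.62 (SE 0.12, interval 0.35 to 0.90, limma adjusted p 0.0554), followed by Aldh2 _at at 0.56 (SE 0.14, limma adjusted p 0.0967) and Akr1b8 at 0.48 (SE 0.15, limma adjusted p 0.149). Averaged over exposures none passed against 0.155% of all. The strain difference in ozone and the ozone effect in C3H/HeOuJ share the C3H/HeOuJ ozone arrays, so they are not separate results.

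These 2 arrays also stood apart in measures of RNA and array. Their actin controls had 5′ over 3′ intensity ratios of 0.766 and 0.756, where the remaining 6 arrays had 0.432 to 0.603. Among these 6, C3H/HeOuJ air had 0.598 and 0.603 and C3H/HeJ had 0.432 to 0.530, so the actin ratio also differed by strain. For Gapdh the ratios of the C3H/HeOuJ ozone arrays were 1.34 and 1.18, where the remaining arrays had 0.775 to 1.06. Their rank correlation with each other was 0.931, against 0.952 to 0.961 for the other replicate pairs. Since both stand apart, the C3H/HeOuJ ozone effect cannot be given without them. With the actin ratio as a covariate the effect for Akr1b8 was 0.55 (SE 0.37), that for Aldh2 _s_at 0.95 (SE 0.31) and that for Aldh2 _at 1.01 (SE 0.31), each with a limma adjusted p of 1. The covariate turned the sign of the C3H/HeOuJ effect for 5 of the 11 probe sets. Aldh1a7 went from 0.30 to -0.60 (SE 0.51), Ephx1 from -0.25 to 0.52 (SE 0.32) and Adh7 from -0.35 to 0.44 (SE 0.91). The _f_at probe sets went from -0.35 to 0.20 (SE 0.55) for Aldh2 and from 0.23 to -0.21 for Aldh3a1. With the covariate the strain difference of Akr1b8 in ozone was -0.03 (SE 0.58). Those of Aldh2 were larger than without it, at 1.36 (SE 0.48) for _at and 0.98 (SE 0.48) for _s_at.

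**Figure D3:**
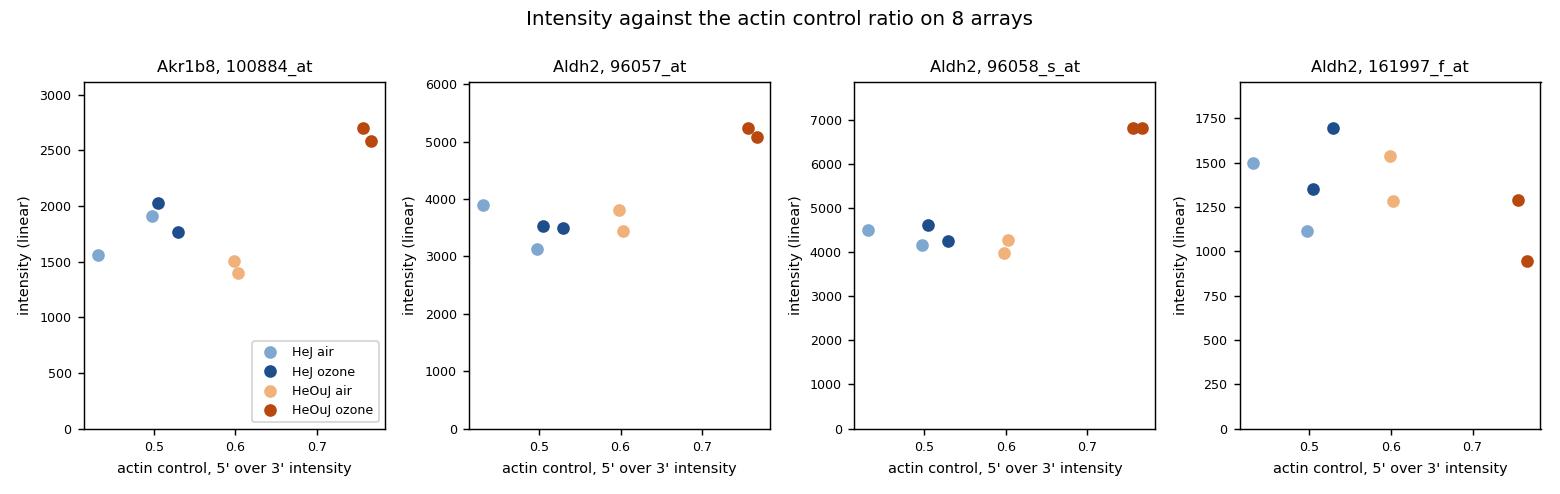
Intensity (y axis, linear, from 0) against the 5′ over 3′ ratio of the actin control (x axis) on 8 arrays, coloured by group, for Akr1b8 and the 3 probe sets of Aldh2. The C3H/HeOuJ ozone arrays have the highest ratios, 0.766 and 0.756, and hold the highest values of Akr1b8 and of Aldh2 _at and _s_at but not of Aldh2 _f_at.

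Among summed cell type markers, those of club cells, alveolar type 2 cells and dividing cells also stood apart on the same arrays. For every other marker list, among them alveolar type 1, endothelial and macrophage markers, the sums overlapped those of the other 6 arrays. In whole lung, fewer cells of a type and less RNA per cell cannot be told apart. The summed intensity of 5 club cell markers of 8 listed, led by Scgb1a1 and Hp, was 130960 to 132715 in C3H/HeOuJ ozone and 80497 to 120312 on the other 6 arrays. In that group the sum of 5 alveolar type 2 markers of 8, led by Sftpc and Sftpb, was 136579 to 145292 against 90203 to 113525, and that of 7 markers of dividing cells 3525 to 3779 against 1812 to 3247. The sum for dividing cells was also higher in C3H/HeJ ozone, at 3219 to 3247, than in C3H/HeJ air, at 2106 to 2541. In each strain 6 of these 7 markers were higher in ozone, with a median of 0.67 in C3H/HeJ and 0.92 in C3H/HeOuJ. For ozone in C3H/HeOuJ, 3 of 5 club cell markers were higher (median 0.37), with Scgb1a1 at 0.48 (SE 0.29) and Hp at 0.60 (SE 0.22). Cbr2, also among these 5 club cell markers, was lower at -1.53 (SE 0.46). In the same comparison 3 of 5 alveolar type 2 markers were higher (median 0.03), with Sftpc at 0.92 (SE 0.29) and Sftpb at -0.19 (SE 0.29). No club cell or alveolar type 2 marker passed in limma. The sums of both lists were far above the floor on all 8 arrays, so the labelled lung has its epithelial markers, and ciliated cell sums were 14285 to 15691 against 15326 to 20195. The part of cell makeup and of the control ratio in the values of Akr1b8 and Aldh2 was not tested.

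Other enzymes of the same chemistry gave no calls either, where at most 0.977% of all probe sets passed in any comparison. Of 52 further aldehyde, carbonyl and epoxide enzymes listed, 26 were tested, and none passed in limma in any of the 7 comparisons. For ozone in C3H/HeOuJ 16 were higher and 10 lower, with a median log2 value of 0.18, and in C3H/HeJ 11 were higher and 15 lower, with a median of -0.02. Ptgr1, a reductase of unsaturated aldehydes and prostaglandins, read 1029 and 1009 in C3H/HeOuJ air and 1643 and 1941 in C3H/HeOuJ ozone, a difference of 0.81 (SE 0.19, limma adjusted p 0.099). In C3H/HeJ Ptgr1 had 0.27 (SE 0.19) with overlapping arrays. Cbr2, a carbonyl reductase that is also 1 of the club cell markers above, was named here after its values were seen. It read 369 and 308.4 in C3H/HeOuJ air and 79.65 and 172.5 in C3H/HeOuJ ozone. This larger difference of -1.53 (SE 0.46, limma adjusted p 0.174) went the other way, and Cbr2 had 0.00 (SE 0.46) in C3H/HeJ. Akr1e1, an aldo-keto reductase, had 0.94 in C3H/HeJ (SE 0.36, limma adjusted p 1), with 1 air array at the floor, and -0.39 in C3H/HeOuJ (SE 0.36). Dhrs3, a retinal reductase, had -0.49 averaged over the strains (SE 0.14, limma adjusted p 0.377).

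Of 24 Nrf2 regulators and targets 21 were tested and none passed in limma in any comparison. Over all probe sets the share that passed was at most 0.977%. For ozone 12 were higher in C3H/HeOuJ (median 0.21) and 10 in C3H/HeJ (median -0.06). Gclm, a subunit of the enzyme that starts glutathione synthesis, read 560.2 and 616.5 in C3H/HeOuJ air and 980.8 and 1097 in C3H/HeOuJ ozone, a difference of 0.82 (SE 0.18, limma adjusted p 0.0939), against 0.12 (SE 0.18) in C3H/HeJ. Nqo1, a quinone reductase, was read differently by its 2 probe sets, at 1.70 (SE 0.42, limma adjusted p 0.118) for its _r_at probe set, with 1 air array at the floor, and at -0.01 (SE 0.62) for its _f_at probe set. Taldo1, an enzyme of the pentose phosphate pathway, had -0.33 in C3H/HeJ and 0.30 in C3H/HeOuJ (SE 0.15 each), and the interaction of 0.62 had a limma adjusted p of 0.33. Me1, the cytosolic malic enzyme, had 0.44 in C3H/HeJ (SE 0.18) and a strain difference in ozone of -0.75 (SE 0.18, limma adjusted p 0.0832). Bach1, a repressor at Nrf2 sites, had an interaction of -0.86 (SE 0.28, limma adjusted p 0.317).

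Of 8 genes of the aryl hydrocarbon receptor and its targets 7 were tested, and none passed in limma in any comparison. Here too the share over all probe sets was at most 0.977%. For ozone 2 were higher in C3H/HeOuJ (median -0.35) and 5 in C3H/HeJ (median 0.11). Tiparp, a target that represses the receptor, read 672.8 and 663.4 in C3H/HeOuJ air and 375.9 and 341 in C3H/HeOuJ ozone, a difference of -0.90 (SE 0.21, limma adjusted p 0.106). In C3H/HeJ Tiparp had 0.33 (SE 0.21). Cyp1a1, the classic induced oxidase, was at the floor on both C3H/HeJ air arrays for its dimmer probe set and read 195 and 217.6 in C3H/HeJ ozone, at least 2.96-fold higher (limma adjusted p 0.535). The brighter Cyp1a1 probe set had -0.11 there (SE 0.35), with overlapping arrays. In C3H/HeOuJ the 2 probe sets also differed in direction, at -0.45 (SE 0.32) for the dimmer and 0.85 (SE 0.35, limma adjusted p 0.295) for the brighter, which read 256.4 and 212.6 in air and 491.8 and 358.2 in ozone. Cyp1b1, a related oxidase, was at the floor on both C3H/HeOuJ ozone arrays and at 306.1 and 311.6 in C3H/HeJ ozone, so that it was at least 4.44-fold lower in C3H/HeOuJ (limma adjusted p 0.0987). The receptor Ahr had -0.86 in the same comparison (SE 0.21, limma adjusted p 0.0932).

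**Figure D4:**
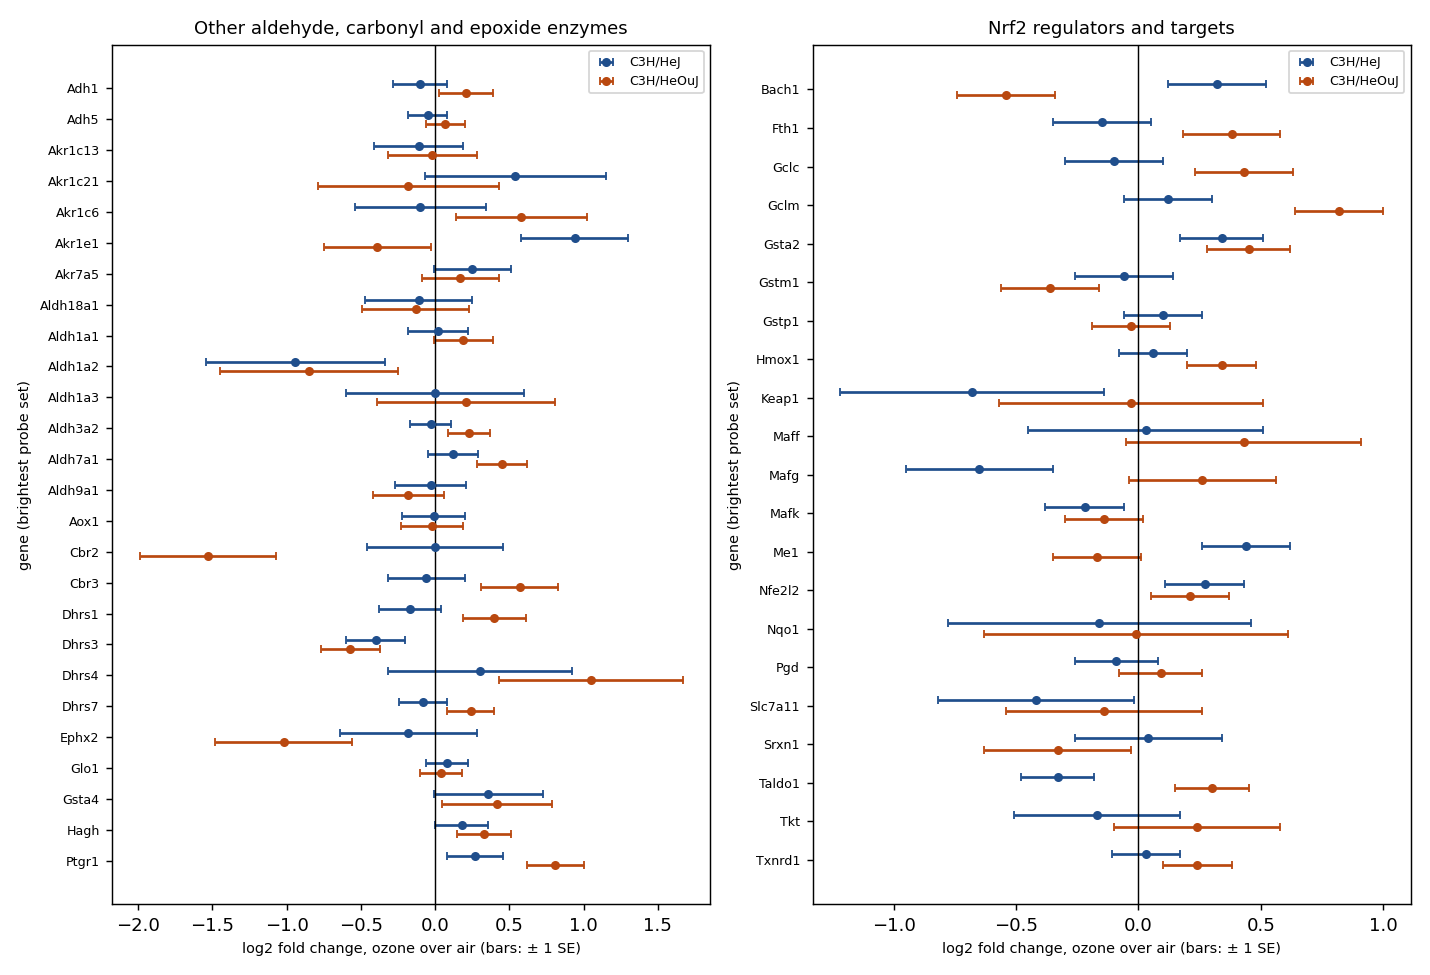
Log2 fold change of ozone over air (x axis) with bars of 1 standard error in C3H/HeJ (blue) and C3H/HeOuJ (orange), for the brightest probe set of 26 other aldehyde, carbonyl and epoxide enzymes (left) and 21 Nrf2 regulators and targets (right). Gclm and Ptgr1 lie at 0.82 and 0.81 in C3H/HeOuJ and at 0.12 and 0.27 in C3H/HeJ, and none of the genes drawn passed in limma.

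For the 3 genes whose brightest probe set had the widest range of group means, the likest profiles among 7424 other probe sets were ranked by Pearson correlation over the 8 arrays, which share the 4 groups. For Akr1b8 they were Cse1l (0.981), a nuclear export factor, S100a6 (0.981), a calcium-binding protein, and Tuba1a (0.975), a tubulin, and 79 probe sets exceeded 0.9. For Aldh2 _s_at they were Pstk (0.989), a kinase of selenocysteine synthesis, Ctsh (0.971), a lysosomal protease, and Prmt1 (0.971), an arginine methyltransferase, with 73 above 0.9. For Adh7 they were Pcp2 (0.964), Plgrkt (0.959) and Sart3 (0.951), with 35 above 0.9. Rank correlations, in the same order of genes, were 1, 0.976 and 0.976 for Akr1b8. They were 0.857, 0.619 and 0.929 for Aldh2 _s_at, and 0.857, 0.738 and 0.952 for Adh7. Probe sets of the member genes were left out of this ranking, so it says nothing on likeness between members.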

How the data were processed

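Whole lung RNA of 8 arrays in 4 groups was analysed from the series' value table. The deposited intensity values are linear, 1 per probe set and array, and their 2% trimmed means of 800.39 to 800.41 show a common scale, with software not given in the sources used here. The labels' 72 h apply to C3H/HeOuJ only. Of 12488 probe sets 66 controls were left out. Genes came from the platform annotation of 2016, which gives 10833 probe sets a single gene, 396 more than 1 gene and 1193 no gene. Values under the 20th percentile (69.63) were set to that floor before log2. Testing covered 10953 probe sets with 2 or more of 8 arrays above the floor and left out 1469.

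All arrays entered 1 model of 4 group means (limma 3.58.1, R 4.3.3, eBayes with an intensity trend, 4 residual degrees of freedom plus 4.54 from the prior). The 7 comparisons were ozone in each strain, their difference (the interaction) and mean, and strain in air, in ozone and on average. Benjamini-Hochberg adjustment ran over all probe sets tested, with a threshold of 0.05. SE is the model's moderated standard error, and intervals are 95%. The model was tested on simulated data for ozone in C3H/HeOuJ, with 200 changed probe sets of 10953. It recovered 35.5% of them at a 2-fold change and 84% at a 4-fold change, so a missing call does not show that RNA was unchanged. The number of arrays limits the precision.

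Members and gene lists were chosen with earlier results of these data known. Named were every member probe set, up to 4 genes per comparison of smallest p from the lists when none passed, the 3 likest profiles of 3 members, and the brightest 2 genes of marker lists. Lists use the brightest probe set per gene for counts. Plots used Python 3.11.15, pandas 2.3.3 and matplotlib 3.10.9.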

Additional observations from a re-analysis of the deposited data

How the results depend on the processing

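The count of member probe sets called was 0 in all 7 comparisons and stayed 0 in each of the 8 fits that left out 1 array (lowest 0, highest 0). Those fits called 0 to 22 of all probe sets for ozone in C3H/HeOuJ, against 50 with all arrays, so a count of 0 members there says nothing on stability. For ozone in C3H/HeOuJ the count became 1 with quantile normalisation and with no filter on dim probe sets. It became 2 with the floor at the 10th or the 30th percentile, with a pseudocount in place of the floor, with only probe sets above the floor on all 8 arrays, or at an adjusted p under 0.1. For strain in ozone it became 1 with the floor at the 30th percentile, the pseudocount or the stricter filter, and 2 at an adjusted p under 0.1. These settings can change calls over the whole array, and the totals under them are not given here. The member counts under them are therefore not a result about these genes. Over 12 alternatives at the threshold of 0.05, the C3H/HeOuJ ozone effect of Aldh2 _s_at passed in 6 (limma adjusted p 0.0311 to 1) and that of Akr1b8 in 4 (0.0314 to 1). The strain difference in ozone of Aldh2 _s_at passed in 3 (0.0402 to 1). With the letters 1a and 1b as a replicate block 0 members passed, and limma gave Akr1b8 0.87 (adjusted p 0.0509) and Aldh2 _s_at 0.73 (adjusted p 0.0547). The deviations of same-lettered arrays correlated between -0.01 and 0.138, so the letters were not taken as pairs. The actin ratio as a covariate turned the sign of 5 of the 11 C3H/HeOuJ ozone effects, among them Aldh1a7 (-0.60) and Ephx1 (0.52). The slope on that ratio came only from differences within pairs of arrays, the widest in C3H/HeJ air. Where a count moved, the cause was not tested. The brightness over background limits Aldh3a1 _f_at, above the floor on 3 of 8 arrays.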
